A study of Homo sapiens with 15 samples.

Results

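RBM47 belongs to a small family of RNA-binding proteins that also holds SYNCRIP, HNRNPR, A1CF, RBM46 and DND1. These 6 genes were taken by name from a table of 23368 genes, and all 6 are listed in it. The question was whether induced RBM47 altered the mRNA of its paralogs, and which paralogs each clone expressed. RNA-seq was done on 3 clones of brain metastatic breast cancer cells, each grown from a single cell and each carrying a FLAG-tagged RBM47 transgene in the retroviral vector pRetroX-Tight-Pur, which doxycycline switches on. WT6 and WT10 cells carry wild type RBM47, and MUT3 cells carry RBM47-I281fs, a frameshift mutant. Every clone was sequenced without doxycycline and at 1, 2.5, 5 and 25 ng/ml, with 1 library per clone and dose, 15 in all. The sample labels name MDA231 as the cell line of all 3 clones, while the methods of the study derive WT6 cells from CN34-BrM2 and WT10 and MUT3 cells from a brain metastatic MDA231 derivative. A difference of WT6 from the other clones therefore cannot be told apart from a difference between lines, and each genotype is represented by 1 or 2 clones.

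All family members carry RNA recognition motifs. RBM47 and A1CF are cofactors of the cytidine deaminase APOBEC1 in C-to-U editing of mRNA, an activity best known from apolipoprotein B mRNA in the intestine and liver. SYNCRIP, also called hnRNP Q, and HNRNPR are abundant hnRNP proteins that bind many mRNAs and act on their splicing, stability, transport and translation. RBM46 and DND1 are known for their roles in germ cells, where DND1 works with NANOS proteins and the CCR4-NOT deadenylase.

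The proteins translated from the annotated coding sequences (GENCODE release 44 on hg19, the MANE Select transcript of each gene) differ in how near they stand to RBM47. RBM47 has 593 residues, A1CF 586, SYNCRIP 623, HNRNPR 633, RBM46 533 and DND1 353. Over aligned residues RBM47 was 55.1% identical to A1CF, 53.0% to RBM46, 49.8% to SYNCRIP, 49.3% to HNRNPR and 34.6% to DND1. SYNCRIP and HNRNPR were 84.2% identical to each other, the highest value of the 15 pairs. As a percent of the shorter protein, identity to RBM47 was 49.5% for A1CF, 50.3% for RBM46, 36.8% for SYNCRIP, 37.4% for HNRNPR and 31.4% for DND1. The order of A1CF and RBM46 and that of SYNCRIP and HNRNPR thus depend on the measure. In this RBM47 sequence the isoleucine nearest to the position in the mutant's name is residue 280, and the residue at the named position itself is arginine. The changed base of the construct is not given in the sources used here. Some figure legends of the paper write the mutant as I280fs. From residue 280 on lie 314 residues, 53.0% of the protein. The mutant is described as truncated where the third RNA recognition motif begins. The coding sequence around codon 280 is given here for the 5 members in which the stretch aligns closely, with 7 codons on either side. The codon was chosen by the mutant's name, and whether the wild type and mutant transgenes part exactly there is not known. Capitals mark RBM47 codon 280 and the codon aligned with it in each paralog.

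RBM47: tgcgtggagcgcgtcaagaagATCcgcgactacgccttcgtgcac
A1CF: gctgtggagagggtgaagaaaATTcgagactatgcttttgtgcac
RBM46: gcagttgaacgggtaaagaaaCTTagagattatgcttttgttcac
SYNCRIP: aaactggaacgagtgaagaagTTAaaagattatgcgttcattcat
HNRNPR: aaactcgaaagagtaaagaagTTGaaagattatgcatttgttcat

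The stretch lies in exon 4 of RBM47 (chr4:40440050-40440094, minus strand), exon 8 of A1CF (chr10:52580363-52580407, minus strand), exon 4 of RBM46 (chr4:155720101-155720145, plus strand), exon 9 of SYNCRIP (chr6:86329013-86329057, minus strand) and exon 9 of HNRNPR (chr1:23640073-23640117, minus strand), all on hg19. Of the 45 bases, A1CF shares 33 with RBM47, RBM46 shares 28, SYNCRIP 27 and HNRNPR 25. The isoleucine is kept in A1CF and replaced in RBM46, SYNCRIP and HNRNPR. In DND1 the aligned stretch shares 12 of 45 bases and is not shown.

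Reads on genes numbered 16382294 to 23374298 per library in WT6 cells, 17193616 to 44771871 in WT10 cells, where the library at 5 ng/ml is the deepest, and 14955172 to 20442942 in MUT3 cells. Levels are given as normalized counts, that is, reads scaled by a size factor for each library, and 5 values in a row stand for 0, 1, 2.5, 5 and 25 ng/ml in that order. VIM, CD44, ZEB1 and AXL, markers of the mesenchymal breast cancer type, were above a normalized count of 10 in every library. Their sum was 70640 to 89607 in WT6, 117626 to 139583 in WT10 and 133098 to 147430 in MUT3 cells. Of 7 luminal or epithelial markers, 3 (ERBB2, EPCAM and GATA3) passed 10 in every library of each clone, and the other 4 reached at most 12.0 (ESR1), 23.8 (PGR), 19.9 (CDH1) and 6.98 (ESRP1). The sum of all 7 was 1553 to 1969 in WT6, 1457 to 1905 in WT10 and 1415 to 1572 in MUT3 cells. In WT6 cells ERBB2 ran from 1018 to 1584, EPCAM from 288 to 456 and GATA3 from 65.4 to 98.8, beside 211 to 529 for ZEB1. Of the markers of liver, intestine, germ, blood and endothelial cells, CDX2 and DAZL had no read in any library, VIL1 stayed at or under 1.36, and DDX4 and NANOG at or under 1.04 and 0.997. POU5F1 ranged from 2.56 to 26.7, PTPRC and PECAM1 summed to at most 13.7, and APOA1 reached 15.5. APOB ranged from 70.1 to 164 in WT6 cells and did not exceed 4.33 in the other clones. ALB reached 53.0 in WT10 and 42.2 in MUT3 cells.

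RBM47 itself was higher at every dose of doxycycline than without it in all 3 clones, over different ranges. In WT6 cells its values were 258, 3137, 8094, 3966 and 10425. Those in WT10 cells were 168, 827, 2822, 8134 and 19877, and in MUT3 cells 73.8, 92.1, 336, 949 and 22084. The order of the doses was kept in WT10 and MUT3 cells, whereas WT6 cells had less RBM47 at 5 than at 2.5 ng/ml. At 25 ng/ml this amounted to 40.5 times the untreated level in WT6, 119 times in WT10 and 299 times in MUT3 cells. MUT3 cells had the least RBM47 at each dose up to 5 ng/ml and the most at 25 ng/ml. Reads of the transgene and of the endogenous gene cannot be told apart in these values.

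A dose slope was fitted for each clone by limma, as the log2 change per doubling of the dose plus 1 ng/ml, over the 12644 genes that averaged 10 or more in all 3 clones. With no replicates, the error is the scatter of all 15 libraries around the lines of their clones, shared by the 3 clones. A slope in 1 clone is therefore tested against scatter from all 3. With each clone fitted alone, 176 genes were called in MUT3 cells. 4 of the 6 members entered the fit (RBM47, SYNCRIP, HNRNPR and DND1), and A1CF and RBM46 fell under the filter. The RBM47 slope was 0.88 (SE 0.23, adjusted p = 0.00446, limma) in WT6, 1.39 (SE 0.25, adjusted p = 0.0015, limma) in WT10 and 2.005 (SE 0.30, adjusted p = 0.0517, unadjusted 8.18e-06, limma) in MUT3 cells. The mean of the wild type slopes minus the MUT3 slope was -0.87 (SE 0.35), which did not pass after adjustment (adjusted p = 0.0782, limma). RBM47 lost its call in WT6 without the untreated library (slope 0.37, adjusted p = 0.119, limma) and in WT10 without the library at 25 ng/ml (slope 2.15, adjusted p = 0.107, limma).

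**Figure D1:**
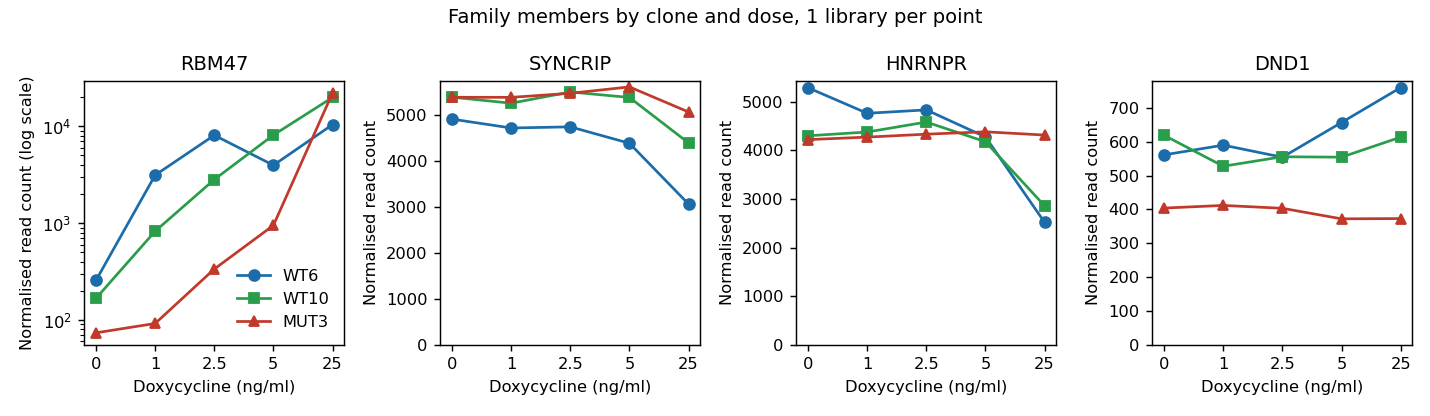
Normalized read counts of RBM47 (log scale), SYNCRIP, HNRNPR and DND1 against the doxycycline dose in ng/ml, with 1 point per library and 1 line per clone. HNRNPR and SYNCRIP are lowest at 25 ng/ml in WT6 and WT10, while HNRNPR in MUT3 cells stays between 4219 and 4380.

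HNRNPR fell with the dose in both wild type clones and did not pass the test in MUT3 cells. The WT6 libraries had 5286, 4761, 4831, 4274 and 2519. The WT10 libraries had 4298, 4376, 4581, 4175 and 2858. The MUT3 libraries had 4219, 4271, 4331, 4380 and 4313. Every treated WT6 library thus lay under the untreated one, in WT10 cells the library at 25 ng/ml stood apart from the other 4, and the MUT3 library at 25 ng/ml lay within the range of the others. The level at 25 ng/ml was 0.477 times the untreated level in WT6 (95% interval 0.452 to 0.502, counting error only), 0.665 times in WT10 (0.633 to 0.698) and 1.02 times in MUT3 cells (0.976 to 1.07).

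The HNRNPR slope was -0.23 (SE 0.035, adjusted p = 0.000131, limma) in WT6, -0.13 (SE 0.035, adjusted p = 0.0176, limma) in WT10 and 0.0071 (SE 0.035, adjusted p = 1.00, limma) in MUT3 cells. The mean wild type slope was lower than the MUT3 slope by 0.19 (estimate -0.19, SE 0.043, adjusted p = 0.0082, limma). The WT6 slope minus the WT10 slope was -0.10 (95% interval -0.20 to 0.01, adjusted p = 0.185, limma). Against all genes tested, HNRNPR stood at the 7.98th percentile of the slopes in WT6 and at the 6.64th in WT10, where the tenth percentiles were -0.20 and -0.11. The slope in WT10 rested on 1 library, since without the library at 25 ng/ml it was -0.0050 (adjusted p = 0.978, limma). In WT6 it was -0.10 without that dose's library (adjusted p = 0.139, limma). The difference from MUT3 did not pass without the WT10 or the MUT3 library at 25 ng/ml (-0.12 and -0.20, adjusted p = 0.084 and 0.187, limma) or without the untreated MUT3 library (-0.18, adjusted p = 0.0518, limma). It passed in the other 12 fits that left out 1 library.

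SYNCRIP, the nearest relative of HNRNPR, fell in WT6 cells. The values there were 4911, 4718, 4743, 4386 and 3062. WT10 cells had 5389, 5257, 5501, 5383 and 4392. MUT3 cells had 5386, 5385, 5473, 5612 and 5066. The lowest library of each clone was the one at 25 ng/ml, at 0.623 times the untreated level in WT6, 0.815 times in WT10 and 0.941 times in MUT3 cells. The slope was -0.15 (SE 0.027, adjusted p = 0.000474, limma) in WT6, -0.060 (SE 0.027, adjusted p = 0.134, limma) in WT10 and -0.016 (SE 0.027, adjusted p = 1.00, limma) in MUT3 cells. The mean wild type slope minus the MUT3 slope was -0.087 (95% interval -0.16 to -0.015), which did not pass after adjustment (adjusted p = 0.0694, limma), nor did the WT6 slope minus the WT10 slope (-0.086, adjusted p = 0.129, limma). Without the WT6 library at 25 ng/ml the WT6 slope was -0.056 (adjusted p = 0.305, limma). The ratio of HNRNPR to SYNCRIP went from 1.08 to 0.823 in WT6 and from 0.798 to 0.651 in WT10 between 0 and 25 ng/ml, and from 0.783 to 0.851 in MUT3 cells.

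DND1 was expressed in all clones at a lower level. In WT6 cells it stood at 561, 590, 554, 657 and 760, in WT10 cells at 619, 528, 556, 554 and 613, and in MUT3 cells at 404, 412, 403, 372 and 373. The 5 MUT3 libraries all lay under the 10 wild type libraries. The share of all genes separated in this way was not counted. For level, 75.5% of all genes were called between WT6 and MUT3, and 48.3% between WT10 and MUT3. DND1 rose in WT6 cells with a slope of 0.098 (SE 0.029, adjusted p = 0.00929, limma), and its slope was 0.011 (adjusted p = 0.825, limma) in WT10 and -0.032 (adjusted p = 1.00, limma) in MUT3 cells. The call in WT6 was lost without the library at 25 ng/ml (0.068, adjusted p = 0.326, limma). On hg19, DND1 overlaps WDR55 on the opposite strand and HARS1 on the same strand, and how reads on these overlaps were assigned is not known in full, so its counts are uncertain. SYNCRIP lies within a longer protein-coding gene annotated on the same strand, which has no row in the table, and whether the counting annotation held that gene is not known.

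Many genes changed with dose in WT6 cells, and the members are to be read against that. Of all 12644 genes, 57.5% were called in WT6, 20% in WT10 and 0% in MUT3 cells (0 genes, with 295 at an unadjusted p under 0.05 in limma 1 called by edgeR and 8 by DESeq2), 24.6% for the mean wild type slope minus the MUT3 slope, and 14.4% for WT6 minus WT10. Of the 3 paralogs tested, 3 were called in WT6, 1 in WT10, 0 in MUT3, 1 for the difference between wild type and mutant, and 0 between the wild type clones. Falling slopes made up 28.3% of genes in WT6 and 9.83% in WT10, and a wild type slope under that of MUT3 made up 14.6%, so a falling paralog was not rare among the genes of these clones. The median slope of all genes was 0.0053 in WT6, -0.0027 in WT10 and 0.0033 in MUT3 cells.

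**Figure D2:**
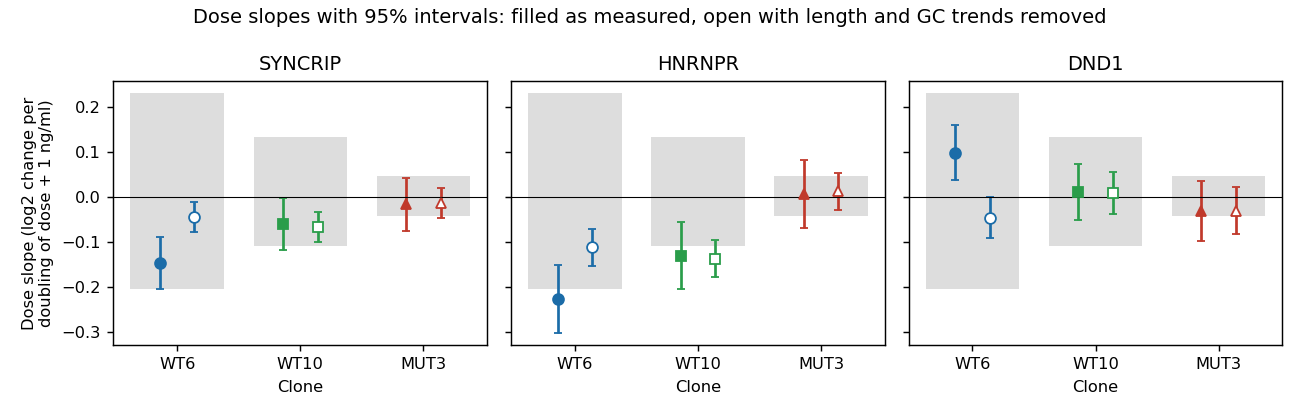
Dose slopes of SYNCRIP, HNRNPR and DND1 in each clone, in log2 change per doubling of the dose plus 1 ng/ml, with 95% intervals from limma, filled symbols as measured and open symbols after length and GC trends were taken out. Grey boxes span the tenth to the ninetieth percentile of the slopes of all genes in that clone, and the filled HNRNPR symbols lie under the box in WT6 and WT10.

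Transcript length moved with the changes in WT6 cells at 5 and 25 ng/ml. Genes were divided into 5 classes of nearly equal size by their longest annotated transcript. From the shortest to the longest class, the median log2 change from the untreated library went from 0.53 to -0.44 at 25 ng/ml and from 0.54 to -0.38 at 5 ng/ml. In WT6 cells at 1 and 2.5 ng/ml it went only from 0.024 to -0.044 and from -0.018 to -0.030. In WT10 at 25 ng/ml these medians were 0.058 and -0.080, and in MUT3 -0.0061 and 0.013. In WT10 at 1, 2.5 and 5 ng/ml the direction was the other way. The medians there went from -0.064 to 0.054, from -0.073 to 0.060 and from -0.073 to 0.046. HNRNPR and SYNCRIP belong to the class of longest transcripts and DND1 to the shortest. At 25 ng/ml in WT6 cells HNRNPR changed by -1.07 and SYNCRIP by -0.68, both further than the median of their class, and DND1 by 0.44, less than the median of its own. At 5 ng/ml in WT6 cells HNRNPR changed by -0.31 and SYNCRIP by -0.16, less than the median of their class. In WT10 at 25 ng/ml HNRNPR changed by -0.59 and SYNCRIP by -0.29.

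**Figure D3:**
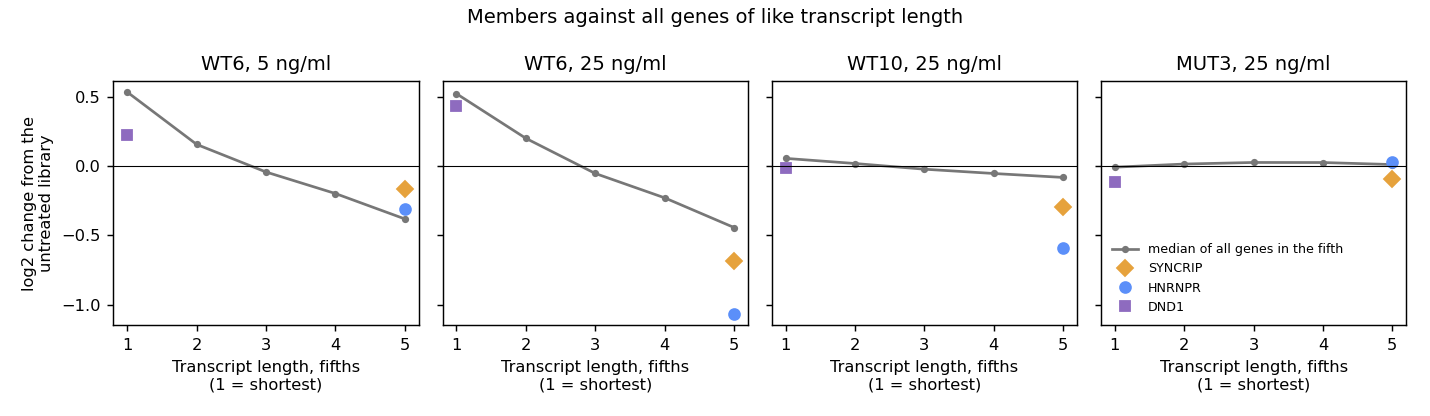
Median log2 change from the untreated library of all genes in each of 5 classes of transcript length (grey line, class 1 the shortest), for 4 libraries, with the changes of SYNCRIP, HNRNPR and DND1 at their own class. HNRNPR lies under the line at 25 ng/ml in WT6 and WT10, at -1.07 and -0.59, and at 0.032 in MUT3 cells.

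With length and GC effects taken out from each library, HNRNPR fell in both wild type clones, with slopes of -0.11 in WT6 (adjusted p = 0.000205, limma) and -0.14 in WT10 (adjusted p = 0.00016, limma), and 0.013 in MUT3 cells. Over the whole range of doses these slopes correspond to 0.695 times the untreated level in WT6 (95% interval 0.608 to 0.794), 0.640 times in WT10 (0.560 to 0.732) and 1.04 times in MUT3 (0.912 to 1.19). SYNCRIP then passed in both wild type clones, with slopes of -0.045 in WT6 (adjusted p = 0.0223, limma) and -0.067 in WT10 (adjusted p = 0.00446, limma). Its slope in MUT3 was -0.013 (95% interval -0.047 to 0.020), and its difference from MUT3 still did not pass after adjustment. The WT6 slope of HNRNPR minus its WT10 slope was then 0.025 (95% interval -0.033 to 0.083). The mean wild type slope of HNRNPR minus its MUT3 slope was -0.14 (adjusted p = 0.00073, limma). The rise of DND1 in WT6 cells was lost and its sign turned (-0.046, adjusted p = 0.0745, limma). The part of transcript length in the measured values was not tested beyond this.

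Libraries were also compared by their RBM47 count in place of the dose. WT6 at 2.5 ng/ml and WT10 at 5 ng/ml had nearly the same RBM47 count (8094 and 8134), and HNRNPR stood at 0.914 and 0.971 times its untreated level. WT6 at 5 ng/ml had less RBM47 than WT6 at 2.5 ng/ml (3966 against 8094) but also less HNRNPR (4274 against 4831). The class of longest transcripts, which holds HNRNPR, had a median log2 change of -0.38 in the former library and -0.030 in the latter. The part of length in this comparison was not tested. At 25 ng/ml WT10 and MUT3 cells had RBM47 counts of 19877 and 22084, with HNRNPR at 0.665 and 1.02 times its untreated level. These are counts of mRNA. The paper reports that little mutant protein was found although its mRNA was abundant. In non-clonal brain metastatic MDA231 cells it detected no mutant protein. Like counts in WT10 and MUT3 cells therefore do not stand for like amounts of protein. With the log2 RBM47 count in place of the dose no slope of the 3 paralogs passed in any clone (HNRNPR -0.12 in WT6 and -0.066 in WT10, adjusted p = 0.231 and 0.472, limma). Under that correlate 1 gene of the whole table was called in WT6 and 88 in WT10.

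**Figure D4:**
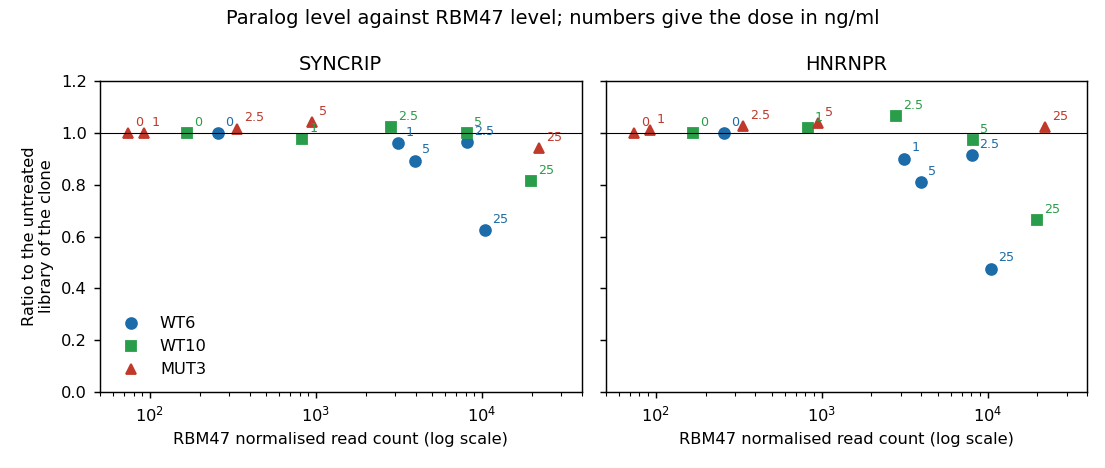
SYNCRIP and HNRNPR as a ratio to the untreated library of the same clone, against the RBM47 normalized read count (log scale), with 1 point per library and the dose in ng/ml beside it. The wild type libraries at 25 ng/ml are the lowest points for HNRNPR, at 0.477 in WT6 and 0.665 in WT10, and the MUT3 library with the highest RBM47 count lies at 1.02.

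A1CF and RBM46 were barely detected. A1CF had 47 reads over the 15 libraries, between 0 and 7 in each, with 15 in WT6, 19 in WT10 and 13 in MUT3 cells. In WT6 cells A1CF went from 7 reads without doxycycline and 5 at 1 ng/ml to 1 read in each of the other 3 libraries, the WT10 libraries had 3, 1, 4, 6 and 5 reads, and the MUT3 libraries had 2, 5, 1, 5 and 0. No common direction was seen at this depth. On hg19, A1CF overlaps ASAH2B on the opposite strand. The strandedness of the libraries is not given, so how reads on this overlap were assigned is not known. RBM46 had 2 reads in all, 1 each in WT6 at 2.5 and 5 ng/ml, and no read in WT10 or MUT3 cells. A count of 0 allows up to 3 reads per library, so low expression of RBM46 was not detectable at this depth.

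Between clones, SYNCRIP was lower in WT6 than in the others, DND1 was higher in both wild type clones than in MUT3, and no difference of HNRNPR was called. Levels were compared at the mean dose code, with 75.3% of all genes called between WT6 and WT10, 75.5% between WT6 and MUT3, and 48.3% between WT10 and MUT3. SYNCRIP was lower in WT6 than in WT10 by 0.26 on the log2 scale (estimate -0.26, SE 0.062, adjusted p = 0.00115, limma) and lower than in MUT3 by 0.32 (estimate -0.32, SE 0.062, adjusted p = 0.000202, limma), and its level in WT10 minus MUT3 was -0.059 (adjusted p = 0.457, limma). DND1 was higher in WT6 than in MUT3 by 0.66 (SE 0.068, adjusted p = 2.71e-07, limma) and in WT10 than in MUT3 by 0.54 (SE 0.068, adjusted p = 9.76e-06, limma), and its level in WT6 minus WT10 was 0.11 (adjusted p = 0.125, limma). The HNRNPR differences were 0.070 for WT6 minus WT10, -0.034 for WT6 minus MUT3 and -0.10 for WT10 minus MUT3 (adjusted p = 0.431, 0.715 and 0.298, limma). Without the libraries at 25 ng/ml, HNRNPR was higher in WT6 than in MUT3 by 0.15 (adjusted p = 0.0146, limma) and than in WT10 by 0.13 (adjusted p = 0.027, limma). At the mean dose code RBM47 was higher in WT6 and WT10 than in MUT3 by 2.75 and 2.37 (adjusted p = 0.000795 and 0.00567, limma). At 25 ng/ml the order was the other way, with 22084 in MUT3, 19877 in WT10 and 10425 in WT6 cells.

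Per kilobase of the longest annotated transcript, normalized counts of SYNCRIP ran from 452 to 725 in WT6, 649 to 813 in WT10 and 748 to 829 in MUT3 cells. Those of HNRNPR ran from 325 to 682, 369 to 591 and 544 to 565, and those of DND1 from 347 to 476, 331 to 388 and 233 to 258. SYNCRIP was above HNRNPR without overlap in WT10 and MUT3 cells, and the ranges overlapped in WT6 cells. HNRNPR and DND1 overlapped in both wild type clones but not in MUT3. A1CF stayed at or under 0.832 per kilobase and RBM46 at or under 0.376. The order of SYNCRIP and HNRNPR depends on the length used, and turned in all 3 clones with the median transcript length of each gene.

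RBM47 went from a minor to the most read member of the family. Its share of the reads of all 6 members was 2.34%, 23.7%, 44.4%, 29.9% and 62.2% in WT6 cells, with 95% Wilson intervals of 2.06 to 2.65 for the first and 61.4 to 63.0 for the last (counting error only). WT10 cells had 1.60%, 7.52%, 21.0%, 44.6% and 71.6%, and in MUT3 cells 0.732%, 0.906%, 3.19%, 8.39% and 69.4%. The summed normalized count of the other 5 members went from 10765 to 6342 in WT6, from 10309 to 7869 in WT10 and from 10012 to 9752 in MUT3 cells between 0 and 25 ng/ml. RBM47 stood at 1.87 times the sum of SYNCRIP and HNRNPR in WT6, 2.74 times in WT10 and 2.35 times in MUT3 cells at 25 ng/ml.

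**Figure D5:**
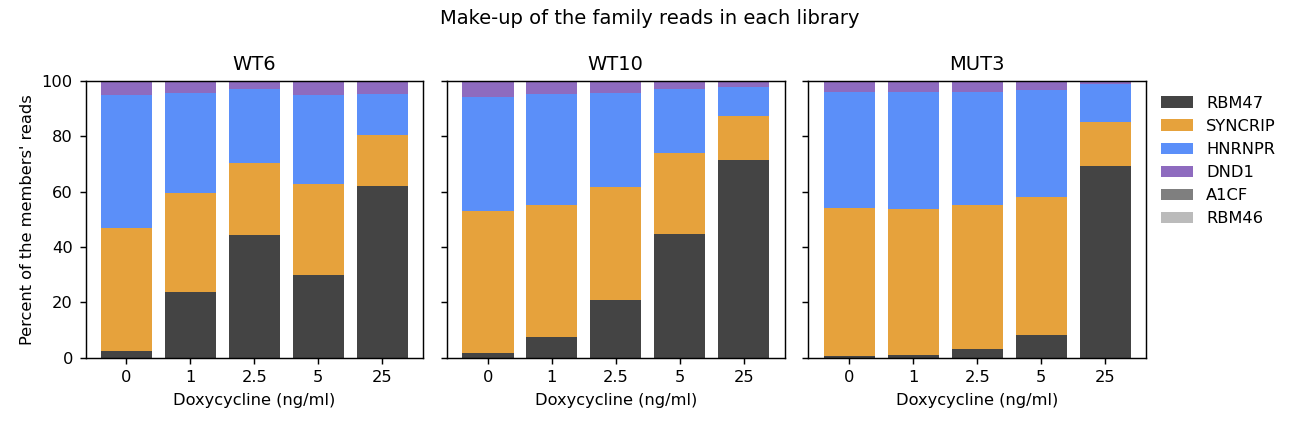
Percent of the reads of the 6 family members that fell on each member, in each clone, against the doxycycline dose in ng/ml, with 1 library per bar. RBM47 reaches 62.2% in WT6, 71.6% in WT10 and 69.4% in MUT3 cells at 25 ng/ml, and A1CF and RBM46 are too few to see.

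Partners of the family were examined as 3 lists. Of 7 partners in C-to-U editing, APOBEC1, the deaminase itself, had no read in any of the 15 libraries. Of the 6 others, 4 fell and 0 rose in WT6 cells (median slope -0.20), 2 fell in WT10 (median -0.068) and 0 were called in MUT3 (median -0.0043), beside 28.3% of all genes falling in WT6 and 9.83% in WT10. KHSRP, a protein of AU-rich mRNA decay, stood at 0.5003 times its untreated level in WT6 and 0.615 times in WT10 at 25 ng/ml, against 1.03 in MUT3 cells, with slopes of -0.23 and -0.15 in the wild type clones (adjusted p = 9.63e-06 and 0.00127, limma). CELF2, a splicing regulator, had a slope of -0.36 in WT6 (adjusted p = 0.000165, limma) and -0.15 in WT10 (adjusted p = 0.193, limma). TNPO2, a nuclear import receptor, had slopes of -0.24 and -0.10 (adjusted p = 7.93e-05 and 0.0476, limma), and BAG4, a chaperone cofactor, -0.17 and -0.032 (adjusted p = 0.00128 and 0.585, limma). When 1 library at a time was left out, the TNPO2 call in WT10 was kept in 3 of 15 fits and lost in 12, with slopes of -0.13 to -0.072. The KHSRP call in WT10 was kept in 14 of 15.

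Of 11 partners of SYNCRIP in complexes of mRNA stability and translation, 10 were tested, and IGF2BP1 had only 16 reads in all. In WT6 cells 5 fell and 2 rose (median slope -0.080), in WT10 cells 3 fell and 0 rose (median -0.052), and 0 were called in MUT3 (median 0.0082). Of all genes, 57.5% were called in WT6 in either direction, 28.3% fell there, and 9.83% fell in WT10. EPRS, a tRNA synthetase of the GAIT complex, had slopes of -0.34 in WT6 and -0.083 in WT10 (adjusted p = 7.03e-06 and 0.103, limma). DHX9, an RNA helicase, had -0.23 and -0.11 (adjusted p = 3.1e-05 and 0.0144, limma), and PABPC1, the cytoplasmic poly(A)-binding protein, -0.14 and -0.049 (adjusted p = 9.69e-05 and 0.128, limma). The DHX9 call in WT10 was kept in 14 of 15 fits that left out 1 library, with slopes of -0.16 to -0.025. RPL13A, a ribosomal protein, rose in WT6 cells with a slope of 0.23 (adjusted p = 0.00897, limma), and its slope in WT10 was 0.058 (adjusted p = 0.605, limma). For the mean wild type slope minus the MUT3 slope, 3 of the 6 tested editing partners and 4 of the 10 tested SYNCRIP partners were lower and 0 were higher, beside 14.6% of all genes lower.

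Of 5 germ cell partners of DND1 and RBM46, 3 passed the filter, of which 2 fell in WT6, 0 were called in WT10 and MUT3, and 1 was lower in the wild type clones than in MUT3. Beside these, 28.3% of all genes fell in WT6, 20% were called in WT10 and 14.6% were lower in the wild type clones. YTHDC2, an m6A reader and helicase, and CNOT1, the scaffold of the CCR4-NOT deadenylase, fell in WT6 cells (slopes -0.16 and -0.19, adjusted p = 0.00173 and 9.81e-05, limma) and did not pass in WT10 (-0.027 and -0.072, adjusted p = 0.656 and 0.0858, limma). With length and GC effects taken out, their WT6 slopes were -0.060 and -0.085, and CNOT1 passed in WT10 (-0.052, adjusted p = 0.0133, limma). NANOS2 had no read in any library, and NANOS3 had 77 reads in all, none of them in WT6 cells, with normalized counts of 4.99 to 13.0 in WT10 and 2.76 to 5.93 in MUT3 cells. On that scale, falling calls among the 10 tested SYNCRIP partners went from 3 to 6 in WT10 and from 5 to 4 in WT6, with 1 rising in WT6 (median slope there -0.021), and 3 were lower in the wild type clones than in MUT3. Of the 6 tested editing partners, 2 then fell in WT10, and 5 fell and 1 rose in WT6. Falling calls over all genes in WT10 rose as well, from 1243 of 12644 to 2129 of 12113. In WT6, with length and GC effects taken out, 3583 of 12113 genes fell and 3580 rose. Genes lower in the wild type clones than in MUT3 then numbered 2421 of 12113.

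The genes whose pattern over the 15 libraries was most like that of a member were found by Pearson's r of log2 normalized counts, as a description. The points share clones, doses and size factors. After each clone's mean was removed, HNRNPR was most like CENPI (r = 0.988), RBM25 (0.986) and CSE1L (0.986), and SYNCRIP most like USP1 (0.989), CSE1L (0.985) and CCDC14 (0.985). HNRNPR and SYNCRIP had r = 0.973 with each other on that scale and 0.725 with clone means left in. With clone means left in, SYNCRIP was most like TMPO (0.982), CRNKL1 (0.981) and TRMT1L (0.980), and HNRNPR most like NUP107 (0.971), DEPDC1B (0.967) and KIF15 (0.967). RBM47 had r = -0.44 with SYNCRIP and -0.41 with HNRNPR after centring. Its most alike genes were DDR2 (0.878), RNFT1 (0.821) and OSBP (0.803) before centring, and BIRC3 (0.869), DCAF12 (0.865) and DDR2 (0.861) after it.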

How the data were processed

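Paired-end reads of polyA-selected RNA were aligned to hg19 by the authors using STAR, gene counts were taken with HTSeq 0.5.4 at default settings, and counts were scaled by DESeq size factors. The deposited table holds this signal (normalized read counts) for 23368 genes, beside 5 tallies of HTSeq. The annotation and the strandedness of the libraries are not given in the sources used here. Reads on no gene made up 56.5% to 59.6% per library and were left out. Whole reads were recovered for 100% of values (within 0.001).

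Members were taken by symbol. The members, partner lists and tests were chosen with earlier results of these data known. Partners named are APOBEC1 and up to 4 per list with the largest slope among those called in WT6 or WT10, and the 3 most alike genes are given for each of RBM47, SYNCRIP and HNRNPR.

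log2(normalized count + 1) was fitted with limma 3.58.1 (R 4.3.3) with vooma weights. The model held 1 level and 1 slope per clone, with the dose coded as log2(dose + 1), and left 9 residual degrees of freedom. Genes with an adjusted p (Benjamini-Hochberg over all genes) under 0.05 were called, and tests are two-sided. The fit was tested on simulated counts with known slopes in a small set of genes. The simulation held no length effects or shifts of single libraries, so it does not cover those of the real data. Alternatives were edgeR 4.0.16 and DESeq2 1.42.0 on recovered reads, TMM scaling, other pseudocounts and dose codes, libraries left out, and trends with transcript length and GC content removed (splines with 4 degrees of freedom, 12113 genes). Lengths came from GENCODE release 44 on hg19, with 91.9% of genes matched. A floor of 3 reads, the 95% intervals of ratios between libraries and the Wilson intervals cover counting error only. The 95% intervals of slopes, of their differences and of ratios computed from a slope come from limma standard errors.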

Additional observations from a re-analysis of the deposited data

Results flagged for a closer look

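The change of HNRNPR with dose differed between the wild type clones and MUT3 by a test of the difference itself. The mean wild type slope minus the MUT3 slope was -0.19 (SE 0.043, adjusted p = 0.0082, limma), with HNRNPR lower at 25 ng/ml than without doxycycline in both wild type clones and not in MUT3. MUT3 is 1 clone, so the mutant and the clone cannot be told apart. No group held enough libraries to look for a library far from the others.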

How the results depend on the processing

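Slopes are in log2 per unit of the dose code. No paired analysis was possible because the clones share no replicate numbers beyond 1 library per dose. Matching the clones by dose, with the dose as a shared factor, left 8475, 8507 and 4434 genes called for the levels of WT6 against WT10, WT6 against MUT3 and WT10 against MUT3, and the same calls for SYNCRIP and DND1. Much rested on the libraries at 25 ng/ml. Without all 3 of them, slopes were 2.15 for RBM47 in WT10 (adjusted p = 0.069, limma), -0.056 for SYNCRIP in WT6 (adjusted p = 0.172, limma), -0.0050 for HNRNPR in WT10 (adjusted p = 0.963, limma), and 0.068 for DND1 in WT6 (adjusted p = 0.29, limma). HNRNPR in WT6 still passed at -0.105 (adjusted p = 0.0406, limma). The HNRNPR difference from MUT3 was -0.076 (adjusted p = 0.366, limma), and its level in WT6 minus MUT3 turned to 0.15 (adjusted p = 0.0146, limma). Genes called then numbered 4688 in WT6, 17 in WT10, 1 for wild type minus MUT3 and 7 for WT6 minus WT10. With the RBM47 count in place of the dose, slopes were -0.075 for SYNCRIP in WT6, -0.12 and -0.066 for HNRNPR in WT6 and WT10, -0.098 for the HNRNPR difference from MUT3, and 0.047 for DND1 in WT6, none of them called, and genes called numbered 1 in WT6, 88 in WT10 and 0 for both differences. With dose ranks the HNRNPR slope in WT10 was -0.13 (adjusted p = 0.119, limma).

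The RBM47 slope in MUT3, short of the threshold in the fit described, passed at 2.01 without a filter, 1.84 without weights, 1.96 with edgeR, 1.82 with DESeq2, 2.07 with each clone fitted alone and 2.04 with length and GC trends removed, and genes called in MUT3 then numbered 14, 1, 1, 8, 176 and 8. Fitted alone, WT6 had 3945 genes called and DND1 there had 0.098 (adjusted p = 0.0975, limma). With length and GC trends removed, 4024 genes were called in WT10, SYNCRIP passed there at -0.067, and DND1 in WT6 turned to -0.046. With median transcript lengths the log2 ratio of SYNCRIP to HNRNPR per length turned to -0.812 in WT6, -0.474 in WT10 and -0.478 in MUT3. Beyond what each alternative changes by construction, the cause was not tested.

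Leaving out 1 library at a time gave RBM47 slopes of 0.37 to 1.47 in WT6, 1.17 to 2.15 in WT10 and 1.67 to 2.11 in MUT3, with -1.12 to -0.50 for the difference from MUT3. SYNCRIP ranged from -0.18 to -0.056 in WT6 and from -0.13 to -0.042 for the difference, which passed without the WT6 library at 0 or 5 ng/ml (adjusted p = 0.0393 and 0.0209, limma). HNRNPR ranged from -0.27 to -0.10 in WT6, -0.18 to -0.0050 in WT10 and -0.21 to -0.12 for the difference. DND1 ranged from 0.068 to 0.11 in WT6 and from 0.055 to 0.11 for the difference, which passed without the untreated WT10 library (adjusted p = 0.0343, limma). Genes called ranged from 4623 to 7891 in WT6, 6 to 4142 in WT10, 0 to 4 in MUT3, 3 to 4914 for wild type minus MUT3 and 59 to 3714 for WT6 minus WT10. A1CF and RBM46 were limited by depth, with at most 7 and 1 reads per library. The overlap of A1CF with ASAH2B leaves its count uncertain as well.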
